A study of Mus musculus with 6 samples.

Results

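The 4 genes of the Id family (Id1, Id2, Id3 and Id4) and 6 genes of bone morphogenetic protein (BMP) signalling (Bmp4, Bmpr1a, Smad1, Smad5, Smad6 and Smad7) were followed in mouse induced pluripotent stem (iPS) cells measured against embryonic stem (ES) cells. They were taken by gene symbol, current or older, and gave 19 probes of the 41174 gene probes on the array, or 10 of the 18295 genes with a symbol. Of these genes, 4 had 1 probe and 6 had 2 or 3. Where 1 probe stands for a gene, it is the brightest.

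Each of the 6 arrays carried RNA of 1 iPS line in one dye and RNA of 1 pool of ES cells in the second dye. Lines iPS1, iPS4 and iPS5 were expanded from green colonies of OG2 embryonic fibroblasts, which carry a fluorescent Oct4 reporter. The fibroblasts had been transduced together with pMX retroviruses for the reprogramming factors (Klf4, Oct4, c-Myc and Sox2) and for subunits of TFIID, a complex that recruits RNA polymerase to core promoters (TAF13, TAF12, TAF11, TAF10, TAF9, TAF7, TAF6, TAF5, TAF4b, TAF4, TAF3 and TBP). The ES cells were OG2 as well, the labels name no virus for them, and both kinds of cell grew on irradiated fibroblast feeders in medium with serum, serum replacement and the cytokine LIF. No transduced gene is among the 10 genes described. Each line had 2 arrays of opposite dye, so a line counted as 1 replicate (n = 3 lines), and the pool, a single sample, showed no spread of its own. All lines received TFIID subunits and reprogramming factors in 1 mixture, so the parts of the 2 kinds of factor cannot be told apart.

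BMP ligands such as Bmp4 bind receptor kinases, among them Bmpr1a, which phosphorylate Smad1 and Smad5. These Smads enter the nucleus with Smad4 and switch on genes of the Id family, while Smad6 and Smad7 are induced in turn and hold the pathway back. Id proteins lack a DNA-binding domain and trap E proteins, the partners of tissue-specific bHLH factors, and in mouse ES cells BMP acting through Id proteins is known to sustain self-renewal together with LIF.

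Smad1 and Smad5 with Smad4 bind a GC-rich motif, GGCGCC, and the shorter Smad box GTCT. RefSeq promoters of the GRCm38.p6 build were matched and read for 8 of the 10 genes (all but Id1 and Smad7). The 250 bases before the start of Id2, Id3 and Id4 are shown because Id genes are direct Smad targets. The called differences described next are those of Id1, Id2 and Id4, and Id3 was not called. Capitals mark GGCGCC, 5′ to 3′ on the gene's strand.
Id2, chr12:25096093-25096342, minus strand: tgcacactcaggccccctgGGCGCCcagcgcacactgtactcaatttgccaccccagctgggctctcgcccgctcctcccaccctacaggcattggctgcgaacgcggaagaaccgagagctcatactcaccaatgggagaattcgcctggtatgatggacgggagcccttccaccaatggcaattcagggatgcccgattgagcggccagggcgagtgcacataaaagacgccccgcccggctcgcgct
Id3, chr4:136143572-136143821, plus strand: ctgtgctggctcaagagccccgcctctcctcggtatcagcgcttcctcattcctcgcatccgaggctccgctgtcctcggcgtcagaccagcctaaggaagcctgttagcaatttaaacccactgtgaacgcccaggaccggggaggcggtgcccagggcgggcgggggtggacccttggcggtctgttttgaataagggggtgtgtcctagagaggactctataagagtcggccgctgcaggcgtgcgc
Id4, chr13:48260866-48261115, plus strand: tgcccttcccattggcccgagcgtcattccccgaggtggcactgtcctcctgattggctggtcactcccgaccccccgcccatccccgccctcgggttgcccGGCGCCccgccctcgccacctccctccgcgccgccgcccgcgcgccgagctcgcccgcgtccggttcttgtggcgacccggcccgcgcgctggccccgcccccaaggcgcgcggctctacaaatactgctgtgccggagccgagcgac
GGCGCC, which reads the same on both strands, stood once in the Id2 window and once in the Id4 window, and Id3 had 0 matches. GTCT, searched on both strands, stood once in the Id2 window, 2 times in the Id3 window and 0 times in the Id4 window. Of 32851 promoter windows of the same length, 9.59% held GGCGCC and 82.86% held GTCT, so the longer motif is the less common one. A match is a run of letters and no evidence of binding. Among the other genes GGCGCC stood in the windows of Bmpr1a and of 1 of 3 Smad5 starts.

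Id1, Id2 and Id4 were higher in the iPS lines than in the ES pool, and none of the other 7 genes passed the test. In limma's test of the 3 line means against 0, with Benjamini-Hochberg adjustment over all 41174 probes and a threshold of 0.05, these 3 of 10 genes were called higher and 0 lower. Among all 18295 genes 10.2% were called, 5.21% higher and 4.95% lower. At an unadjusted p under 0.05 the count was 7 of 10, against 34.2% of all genes. On all 6 arrays 5 of the 10 genes had a ratio above 0, against 14.6% of all genes. The median of the 10 log2 ratios was 0.47, against -0.005 for all genes. In bulk RNA, a different share of cells that express a gene and a different level per cell cannot be told apart.

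Id1, the Id gene most often used as a readout of BMP signalling, had the largest difference of the 10. On the 2 arrays of each line its log2 ratio of iPS over ES was 1.30 and 1.65 in iPS1, 2.46 and 2.85 in iPS4, and 3.28 and 2.35 in iPS5. All 6 ratios were above 0, those of iPS1 were the lowest and those of iPS4 and iPS5 overlapped. The mean of the lines was 2.32 ± 0.73 (SD, n = 3 lines), a fold of 4.98 that ranked number 4 among 18295 genes, with an adjusted p of 0.0374 in limma and a 95% interval of 1.48 to 3.15 on the log2 scale. Line by line the fold was 2.78 in iPS1, 6.31 in iPS4 and 7.03 in iPS5. With arrays scaled to a common spread it was 5.14 in iPS4 and 12.4 in iPS5, and with a normexp offset of 0 it was 11.3 in iPS5. A second Id1 probe gave 2.31 ± 0.67 with an adjusted p of 0.0336. The mean change exceeded 2-fold upward for 0.344% of all genes.

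The scanner signals behind the Id1 ratios, after subtraction of the local background, were 1379 and 795 in iPS1 RNA, 2903 and 2537 in iPS4 RNA, and 911 and 852 in iPS5 RNA. The ES pool gave 286 and 389 on the iPS1 arrays, 323 and 685 on the iPS4 arrays, and 123 and 49.4 on the iPS5 arrays. On each array the iPS channel was the brighter one, whichever dye it carried. The iPS5 arrays were dimmer as a whole: 47.4% to 65.7% of gene probes per channel were above background there, against 65.2% to 87.1% on the other arrays.

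**Figure D1:**
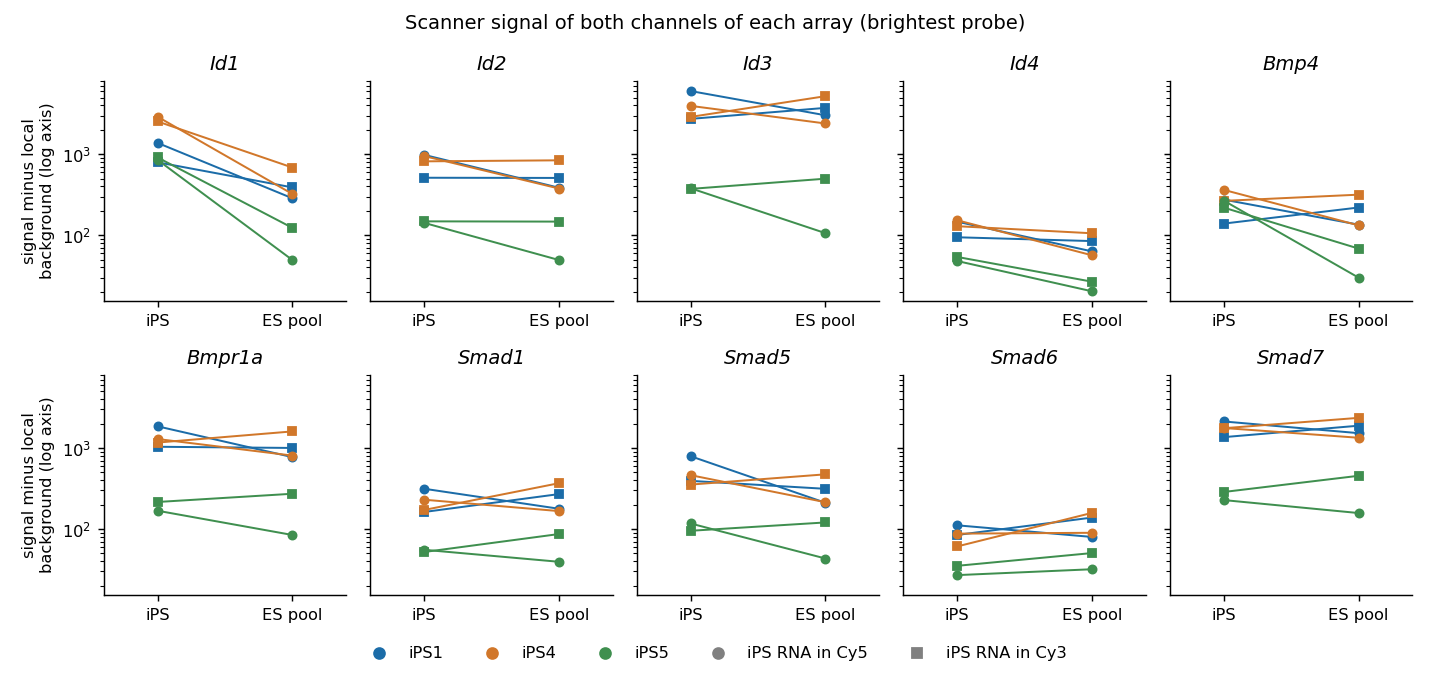
Scanner signal minus local background (log axis, arbitrary units) of the brightest probe of each gene, with the iPS channel left and the ES pool right, and 1 line joining both channels of an array. Colours are iPS lines, circles mark arrays with iPS RNA in Cy5 and squares arrays with iPS RNA in Cy3. For Id1 every line falls to the right, from iPS signals of 795 to 2903 to pool signals of 49.4 to 685, while for Id3, Smad7 and other genes the slope goes with the dye before normalization.

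Id2, which in many tissues restrains lineage bHLH factors, had log2 ratios of 0.46 and 0.70 in iPS1, 0.74 and 0.97 in iPS4, and 0.65 and 0.37 in iPS5. All 6 arrays were above 0, with a mean of 0.65 ± 0.18 (SD, n = 3 lines; adjusted p = 0.0352, limma), or 1.57-fold. Its second probe also passed, at 0.51 ± 0.15 (adjusted p = 0.0372, limma). Its dimmest probe, above background in 5 of 6 channels of either RNA, gave 0.25 ± 0.22 (adjusted p = 0.187, limma), with 0.01 in iPS5. The Id2 probes therefore differed in size, and in iPS5 the dimmest showed almost no difference.

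Id4, a family member known from neural and germ cells, had log2 ratios of 0.38 and 0.45 in iPS1, 0.68 and 0.91 in iPS4, and 0.66 and 0.32 in iPS5. All were above 0, with a mean of 0.57 ± 0.20 (SD, n = 3 lines; adjusted p = 0.0452, limma), or 1.48-fold. The second Id4 probe gave 0.58 ± 0.19 (adjusted p = 0.0416, limma). Id4 signals were low: on the iPS5 arrays they were 53.9 and 48.0 in iPS5 RNA and 26.7 and 20.3 in the ES pool, and the pool's channel was above background on 5 of 6 arrays. The size of the Id4 ratio moved with the background correction: its mean was 1.05 with a normexp offset of 0 and 0.98 with plain subtraction, and still called.

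Id3, which often accompanies Id1 as a BMP target, did not pass the test. Its 1 probe had log2 ratios of -0.06 and 0.41 in iPS1, 0.07 and 0.31 in iPS4, and 0.45 and 0.61 in iPS5. The arrays of iPS1 fell on both sides of 0, and iPS5 was the highest. The mean was 0.30 ± 0.20 (SD, n = 3 lines; adjusted p = 0.123, limma), with an interval of 0.06 to 0.54.

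**Figure D2:**
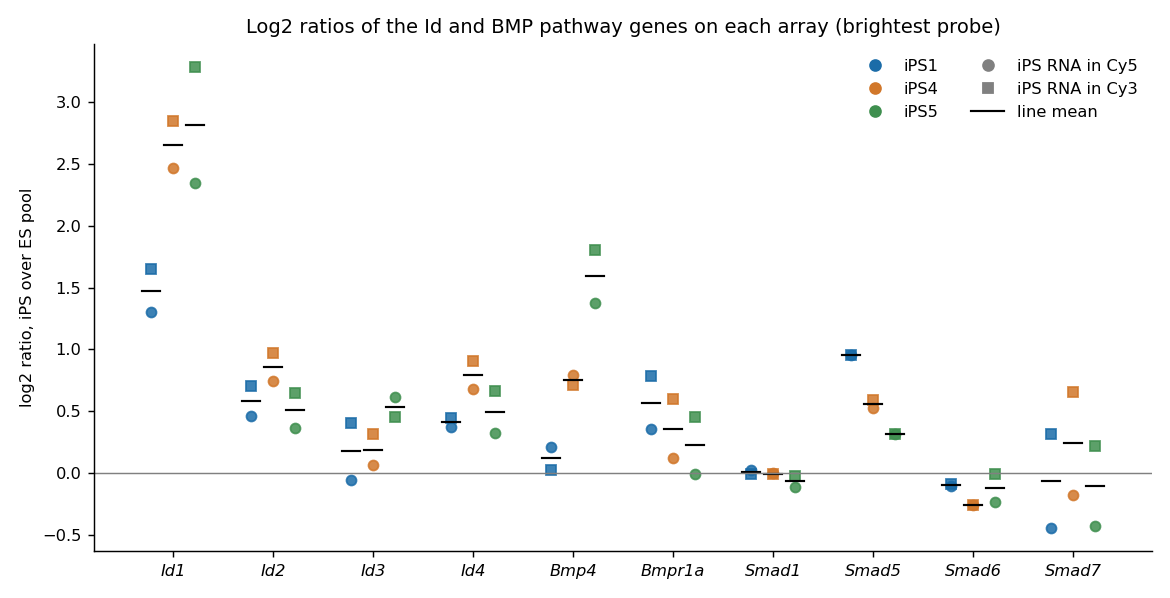
Log2 ratio of iPS over ES (vertical axis) of the brightest probe of each of the 10 genes on each of the 6 arrays. Colours are lines, circles mark iPS RNA in Cy5, squares mark iPS RNA in Cy3 and black bars are line means. Id1 lies at 1.30 to 3.28, Bmp4 is ordered iPS1, iPS4, iPS5, Smad5 is ordered the other way, and Smad7 splits by dye.

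The calls of Id1, Id2 and Id4 were lost when the pool was counted as 1 sample that varies like a line: 0 of 10 genes were called in limma (3 at an unadjusted p under 0.05), and the adjusted p of Id1 was 0.439. With arrays scaled to a common spread Id1 alone lost its call (2.42, adjusted p = 0.0561, limma). The 3 calls were also lost (0 of 10 called) without the first iPS4 array or the first iPS5 array (7 at an unadjusted p under 0.05 each), without line iPS1 (8) and without line iPS4 (5). Without the dimmer line iPS5, 3 genes were called, Id2, Bmpr1a and Smad5, and Id1 stood at an adjusted p of 0.0501 (limma).

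Bmp4, a ligand that induces Id genes in mouse ES cells, did not pass the test over the lines, and its lines differed widely. Its 1 probe had log2 ratios of 0.21 and 0.03 in iPS1, 0.79 and 0.71 in iPS4, and 1.80 and 1.38 in iPS5. The 3 lines did not overlap, and the mean was 0.82 ± 0.74 (SD, n = 3 lines; adjusted p = 0.185, limma). The fold was 1.09 in iPS1, 1.68 in iPS4 and 3.01 in iPS5, where it was 5.67 with a normexp offset of 0 and 5.11 with plain subtraction.

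Bmpr1a, a type I receptor for Bmp2 and Bmp4, had log2 ratios of 0.35 and 0.78 in iPS1, 0.12 and 0.60 in iPS4, and 0.46 and -0.01 in iPS5. In each line the array with iPS RNA in Cy3 gave the higher ratio, and the mean was 0.38 ± 0.17 (SD, n = 3 lines; adjusted p = 0.067, limma). The authors' deposited ratios of this probe were 0.53 on both arrays of iPS1, 0.28 and 0.30 in iPS4, and 0.29 and 0.14 in iPS5. The gaps between the dyes were smaller there. A second probe gave 0.08 ± 0.05 (adjusted p = 0.239, limma). The dimmest probe gave 0.50 ± 0.41 (adjusted p = 0.158, limma); it was above background in 5 iPS channels and 4 pool channels of 6.

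Of the Smads that carry the signal, Smad5 was above 0 on all arrays at its brightest probe and Smad1 was not. Smad5 had log2 ratios of 0.96 and 0.95 in iPS1, 0.53 and 0.59 in iPS4, and 0.32 on both arrays of iPS5. The duplicates nearly coincided and the lines did not overlap, with a mean of 0.61 ± 0.32 (SD, n = 3 lines; adjusted p = 0.0782, limma). The other Smad5 probes gave 0.10 ± 0.13 and 0.04 ± 0.06, so a difference of that size was seen by 1 of 3 probes. Averaged over its probes Smad5 was 0.25. Smad1 ranged from -0.11 to 0.03 over the 6 arrays at its brightest probe, with a mean of -0.02 ± 0.04 (adjusted p = 0.726, limma) and an interval of -0.11 to 0.07. Its second probe gave 0.22 ± 0.15 (adjusted p = 0.130, limma), so the Smad1 probes disagreed as well.

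The inhibitory Smads showed small differences. Smad6, which acts mainly on BMP receptors and Smad1, had log2 ratios of -0.10 and -0.09 in iPS1, -0.26 on both arrays of iPS4, and -0.01 and -0.24 in iPS5. All 6 were below 0, with a mean of -0.16 ± 0.09 (SD, n = 3 lines; adjusted p = 0.114, limma), and the interval ran from -0.28 to -0.04.

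Smad7, which also inhibits TGF-beta receptors, split by dye, which cannot be told apart from the 2 sets into which the array numbers of the titles fall. With iPS RNA in Cy5 its log2 ratio was -0.44 in iPS1, -0.18 in iPS4 and -0.43 in iPS5, and with iPS RNA in Cy3 it was 0.32 in iPS1, 0.66 in iPS4 and 0.22 in iPS5. The mean of the lines, in which opposite dyes balance, was 0.02 ± 0.19 (SD, n = 3 lines; adjusted p = 0.891, limma). The dye term of the fit to all arrays was -0.37 for Smad7 (adjusted p = 0.000806, limma), and it passed for 5 of the 10 genes against 24.4% of all genes. The other 4 were Id1, Id2, Id4 and Bmpr1a, with dye terms of -0.28, -0.12, -0.11 and -0.23. In the authors' deposited ratios the Smad7 values were -0.13 and -0.14 in iPS1, 0.11 and 0.16 in iPS4, and -0.10 and -0.25 in iPS5, without that split, and the mean of the lines was -0.06.

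**Figure D3:**
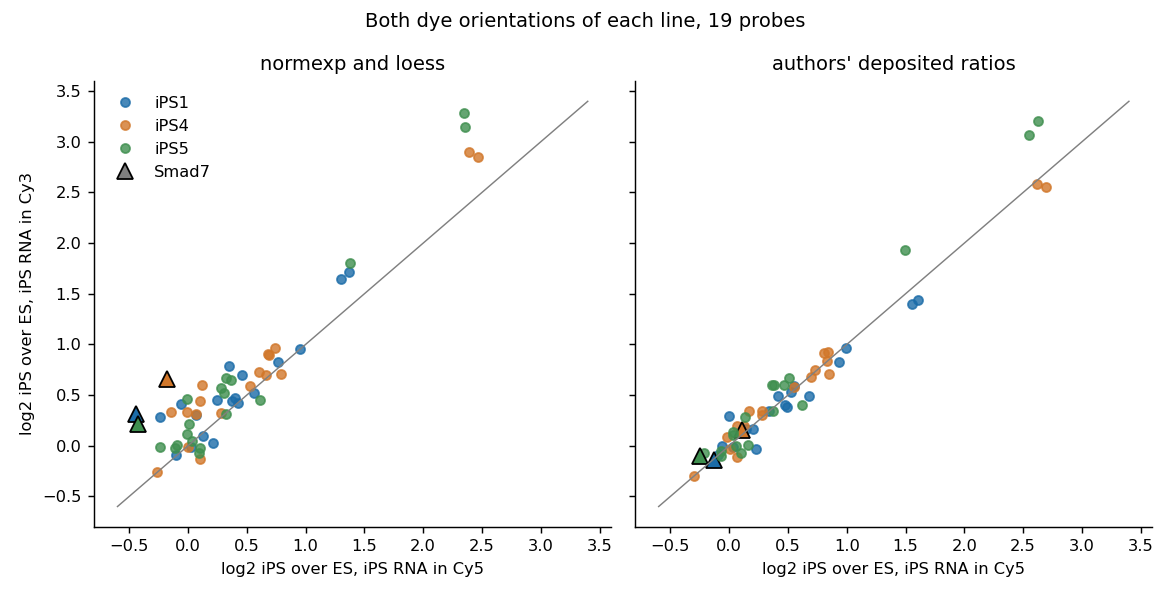
Log2 ratio of iPS over ES of all 19 probes with iPS RNA in Cy5 (horizontal axis) against iPS RNA in Cy3 (vertical axis) of the same line, 1 colour a line, for background correction and loess as used here (left) and for the authors' deposited ratios (right). The grey line marks equal values. Smad7 (triangles) lies off the line on the left, at -0.44 to -0.18 in Cy5 and 0.22 to 0.66 in Cy3, and near it on the right.

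Of the 19 probes, 6 were called in the mean of the lines, all higher and all of Id1, Id2 or Id4, against 3.86% of all probes called higher. Both channels were above background on all 6 arrays for 14 of the 19, and 0 were saturated. The authors' deposited table, whose test is not stated, gave mean log2 ratios of 2.34 and 2.31 for Id1, 0.65 and 0.54 for the brighter Id2 probes, 0.64 and 0.65 for Id4, and 0.64 for the brightest Smad5 probe. In that table the p-value of the Smad5 probe was 0.0096 and that of Bmp4 was 0.997 beside a mean of 0.87.

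**Figure D4:**
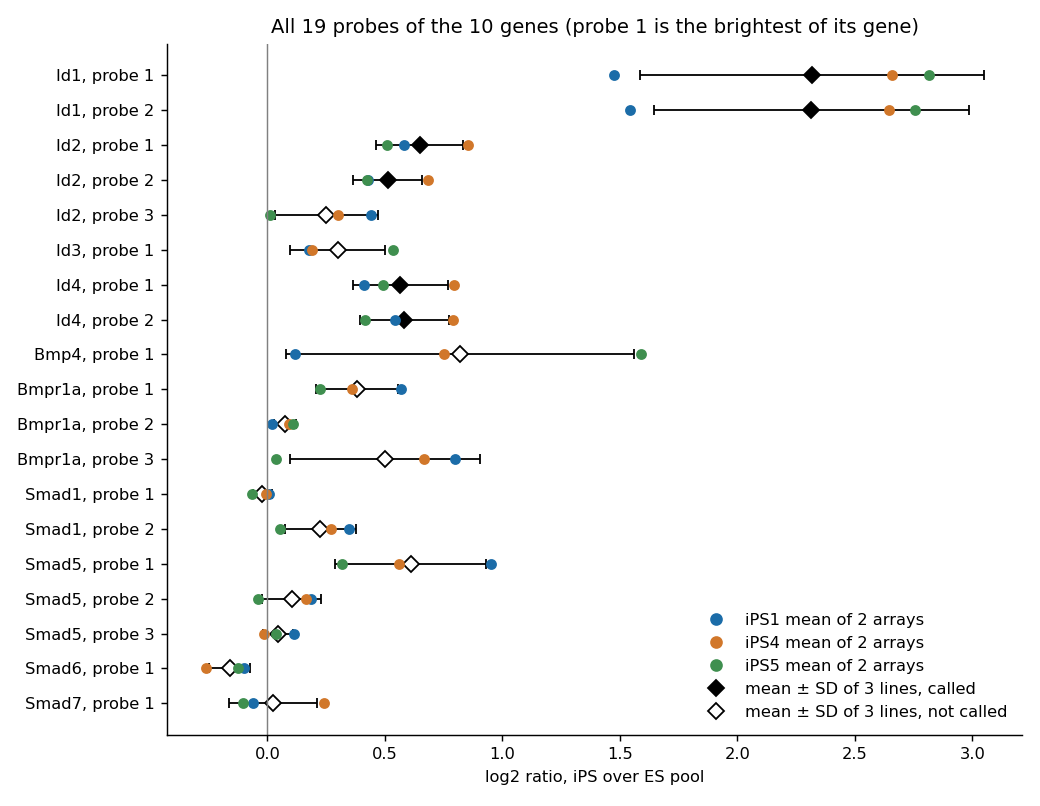
Log2 ratio of iPS over ES (horizontal axis) of all 19 probes (rows), with coloured circles for the means of the 2 arrays of each line and diamonds with bars for mean ± SD of the 3 lines. Filled diamonds are called at an adjusted p under 0.05; both Id1 probes lie at 2.31 to 2.32 and the 3 Smad5 probes lie at 0.61, 0.10 and 0.04.

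Within single lines, tested against the spread between duplicate arrays, more genes passed. In iPS1, 5 of 10 were higher and 0 lower, against 21.5% and 21.2% of all genes. In iPS4, 7 were higher and 1, Smad6, was lower (-0.26, adjusted p = 0.00542, limma), against 20.6% and 23.2%. In iPS5, 7 were higher and 0 lower, against 13.9% and 13% of all genes. Id1, Id2, Id4, Bmpr1a and Smad5 were, at their brightest probes, among the higher genes of every line. The second Bmpr1a probe passed in no line. In iPS5 the dimmest probes of Id2 and Bmpr1a and the other Smad5 probes did not pass. The second Smad5 probe passed in iPS1 (0.19, adjusted p = 0.0213, limma) and in iPS4 (0.16, adjusted p = 0.0369, limma), and the dimmest in no line. Without the dye term Bmpr1a passed in no line (adjusted p of 0.0706 in iPS1, 0.229 in iPS4 and 0.700 in iPS5, limma). Bmp4 passed in iPS4 and iPS5, Id3 in iPS5 (0.53, adjusted p = 0.00658, limma), and Smad7 in iPS4. Nothing in the labels says that the duplicates had separate RNA, so these p-values measure a spread that may be technical.

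The F test among the 3 lines, on the same spread, called 7 of the 10 genes against 25.2% of all genes. They were Id1, Id2, Id4, Bmp4, Bmpr1a, Smad5 and Smad7, and their order over the lines was not the same. Of the 19 probes it called 12, against 20% of all probes. With a normexp offset of 0 in place of 50 it called 0 of the 10 genes in limma, with 5 at an unadjusted p under 0.05. Id1 was lower in iPS1 than in iPS4 by -1.18 and than in iPS5 by -1.34 on the log2 scale (adjusted p = 0.00354 and 0.00105, limma), while iPS4 and iPS5 differed by -0.16 (adjusted p = 0.556, limma). For Bmp4 all 3 pairs differed: iPS1 minus iPS4 was -0.63, iPS1 minus iPS5 was -1.47 and iPS4 minus iPS5 was -0.84 (adjusted p of 0.0325, 0.000699 and 0.0121, limma). For the brightest Smad5 probe all 3 pairs differed in the other direction, by 0.39, 0.64 and 0.24 (adjusted p of 0.00633, 0.000494 and 0.0339, limma). With a normexp offset of 0 this probe stood at 1.08 in iPS1, 0.64 in iPS4 and 0.54 in iPS5. With scaled arrays it stood at 0.82, 0.50 and 0.42. The order held, but iPS4 and iPS5 lay closer together. At the other Smad5 probes no pair passed. Over all genes, 12% were called between iPS1 and iPS4, 23% between iPS1 and iPS5, and 13.3% between iPS4 and iPS5.

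At the brightest probes of Id2 and Id4 the highest line was iPS4, although with a normexp offset of 0 Id4 was 1.33 in iPS5 and 1.19 in iPS4. At these probes Id2 was higher in iPS4 than in iPS5 by 0.35 and Id4 by 0.30 (adjusted p = 0.00979 and 0.0453, limma), and iPS1 minus iPS5 passed for neither gene. At the dimmest Id2 probe iPS1 was highest. There iPS1 minus iPS5 was 0.43 and iPS4 minus iPS5 was 0.29 (adjusted p = 0.00689 and 0.0447, limma). At the second Id2 probe no pair passed. At its brightest probe Bmpr1a was highest in iPS1, and only iPS1 minus iPS5 passed (0.35, adjusted p = 0.00485, limma). At its dimmest probe iPS1 minus iPS5 was 0.76 and iPS4 minus iPS5 was 0.63 (adjusted p = 0.0003 and 0.0021, limma). At its second probe iPS1 was lowest and no pair passed. For Smad7 iPS4 was above iPS1 and iPS5, on arrays that split by dye. The F tests of Id3, Smad1 and Smad6 gave adjusted p-values of 0.151, 0.610 and 0.260 (limma).

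The labels give the iPS samples the cell type MEF and the pool ES. Of 9 pluripotency markers all were above background on every array. Nanog was called higher at 0.65, and Zfp42 at -2.74 and Tdgf1 at -0.38 were called lower. The median of the 9 log2 ratios was -0.51 in iPS1, 0.07 in iPS4 and -0.002 in iPS5, and 6 passed the F test among the lines. Over all genes 10.2% were called, 34.2% had an unadjusted p under 0.05 (limma) and 25.2% passed the F test. The 16 fibroblast markers, which donor and feeder cells express, had 4 called lower and 0 higher. Of the 16, 13 had an unadjusted p under 0.05 (limma) and 14 passed the F test. Both channels were above background on every array for 12 of the 16, and none was below background in every channel. Their summed level after normalization was 2395 to 13052 in iPS RNA and 3040 to 17434 in the ES pool. The ratio of iPS over ES was 0.42 and 0.51 in iPS1, 0.68 and 0.75 in iPS4, and 0.85 and 0.79 in iPS5. Each gene in such a sum carries the normexp offset of 50, which draws the ratio of dim markers towards equality. For the 9 markers of primitive streak and mesoderm, 0 were called and 3 had an unadjusted p under 0.05 (limma). The lines differed in them, and 8 passed the F test. Of the 9 means 8 were above 0, the largest that of T, with 3.71 in iPS1, 3.07 in iPS4 and 0.62 in iPS5. Only 1 of the 9 was above background in both channels of every array, and none was below background in every channel. The sum of the 9 was 586 to 3334 in iPS RNA and 586 to 1106 in the pool. The ratio was 3.01 and 2.87 in iPS1, 1.70 and 1.98 in iPS4, and 1.13 and 1.00 in iPS5. On the dimmer iPS5 arrays the offset makes up much of the sum, so the ratios there do not show equal levels. The 9 primitive endoderm markers, with 0 called and 0 at an unadjusted p under 0.05 (limma), summed to 0.89 to 1.23 times the pool. The 9 trophectoderm markers, with 3 called lower and 0 higher, summed to 0.56 to 0.83 times. The F test passed for 5 primitive endoderm and 5 trophectoderm markers. On each of these lists 3 of the 9 markers were above background in both channels of every array, so the limit of the offset holds for them as well. Over the lines, the sums of the streak markers thus had the order of the brightest Smad5 probe and those of the fibroblast markers that of Bmp4. Taken singly, Hand1 and Mesp1 did not have the order of the streak sums. Likewise Thy1, Cdh11, Pdgfra and Prrx1 did not have that of the fibroblast sums. Of the pluripotency markers, Pou5f1, Nanog, Esrrb, Zfp42, Utf1 and Dppa5a also had the order of Bmp4, and Sox2, Tfcp2l1 and Tdgf1 did not. The part of any of these kinds of cell in these results was not tested.

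Few other genes of the pathway were called in the mean of the lines. Of 58 other measured genes on 8 lists, 1 was called higher and 2 lower, 14 had an unadjusted p under 0.05 (limma), against 10.2% called and 34.2% with an unadjusted p under 0.05 over all genes, and their median log2 ratio was -0.003, beside -0.005 over all genes. Their log2 ratios ran from -0.44 to 0.83, and some that were not called were as large as those of Id2 and Id4: Zfp423, a BMP-linked zinc finger factor, stood at 0.77 ± 0.41, Fstl1, related to follistatin, at 0.62 ± 0.48, and Tbx3, a T-box factor, at 0.57 ± 1.01. These 3 were named after their values were seen. No gene was called on the lists of ligands (0 of 12 measured, Bmp4 included), receptors (0 of 7), co-receptors (0 of 5), Smads (0 of 8) or extracellular antagonists (0 of 12).

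On the list of 17 BMP target genes, the Id genes held the 3 calls upward, and the only call downward was Hey1, a bHLH repressor also induced by Notch. Hey1 had log2 ratios of -0.29 and -0.20 in iPS1, -0.49 and -0.44 in iPS4, and -0.56 and -0.30 in iPS5. All were below 0, with a mean of -0.38 ± 0.12 (SD, n = 3 lines; adjusted p = 0.043, limma). Hey1 was called in 10 of 19 alternatives, and not with a normexp offset of 0 (adjusted p = 0.0702, limma) or, by a narrow margin, with scaled arrays. The median of the 17 genes was -0.001, beside -0.005 for all genes.

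Of the E proteins, the partners that Id proteins bind, Tcf12 was called higher. Its brightest probe had log2 ratios of 0.86 and 1.09 in iPS1, 0.72 and 1.06 in iPS4, and 0.86 and 0.42 in iPS5, with a mean of 0.83 ± 0.17 (SD, n = 3 lines; adjusted p = 0.0262, limma). A second Tcf12 probe was called at 0.33 ± 0.04 and the other 7 were not called, at -0.04 to 0.58. Each of those 7 was below background in some channels, and the probes of this gene did not report 1 size of change. The other 2 E proteins measured were not called.

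Among the intracellular brakes, Smurf1, a ubiquitin ligase for Smad1 and Smad5, was called lower at its brightest probe, -0.38 ± 0.14 (SD, n = 3 lines; adjusted p = 0.0499, limma). Its other probe gave 0.12 ± 0.11 (adjusted p = 0.252, limma), on the other side of 0. Bambi, a pseudoreceptor that lacks the kinase domain, had a mean of -0.20 ± 0.13 and Rgmb, a co-receptor, -0.15 ± 0.03 (adjusted p = 0.123 and 0.0615, limma).

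The 3 extracellular antagonists with the smallest p were called among the lines by the F test (adjusted p of 0.000864 for Fst, 0.00122 for Grem1 and 0.0288 for Twsg1, limma) and not in the mean of the lines. Fst, follistatin, which binds activin and some BMPs, had line means of 1.35 in iPS1, 0.95 in iPS4 and 0.20 in iPS5 (mean 0.83 ± 0.58, adjusted p = 0.122, limma). Grem1, which traps Bmp2 and Bmp4, had -0.78 in iPS1, -0.40 in iPS4 and -0.15 in iPS5 (mean -0.44 ± 0.32, adjusted p = 0.131, limma). Both were farthest from 0 in iPS1, where Bmp4 was nearest to 0 and the sums of the streak and fibroblast markers were farthest from the pool. Twsg1, a modulator of BMP binding to chordin, had a mean of 0.25 ± 0.16 (adjusted p = 0.118, limma).

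**Figure D5:**
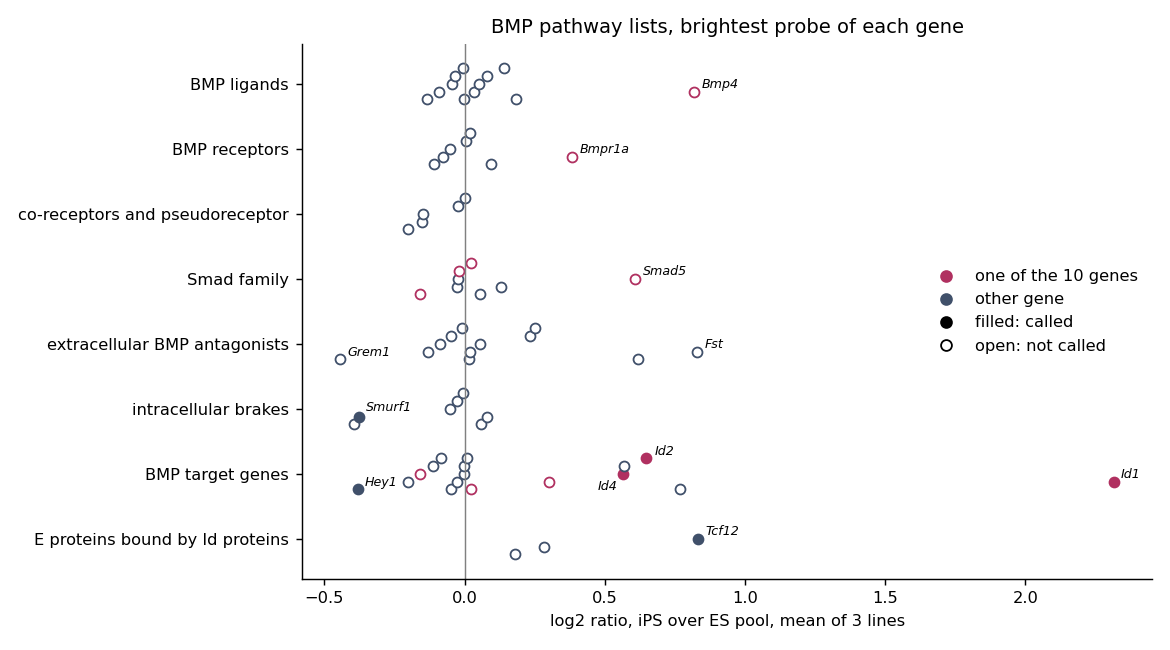
Mean log2 ratio of iPS over ES over the 3 lines (horizontal axis) of each measured gene, by list (rows; vertical offsets within a row only separate points). Red marks the 10 genes and grey-blue the others; filled points are called and open points are not. Id1 stands at 2.32, Id2 at 0.65 and Id4 at 0.57 among BMP targets, and Hey1, Smurf1 and Tcf12 are the 3 other called genes.

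Genes whose pattern over the 6 arrays was nearest to that of Id1 and of Id3 were found by the root mean square difference of the log2 ratios over 17583 named genes. For Id1 they were Plagl1 (0.72), Tgtp2 (0.74), Irgm1 (0.75), Wtap (0.86) and Epas1 (0.89), so none lay close to it. Of these, Epas1 and Tgtp2 were lowest in iPS1, as Id1 was. The line means of Epas1 were 0.51 in iPS1, 1.71 in iPS4 and 2.19 in iPS5. Those of Tgtp2 were 1.39 in iPS1, 2.23 in iPS4 and 1.69 in iPS5. For Id3 they were Psmc1 (0.09), Scp2 (0.12), Stt3a (0.14), Ets2 (0.14) and Supt4a (0.14), which like Id3 were highest in iPS5, with line means of 0.46 to 0.57 there against 0.53 for Id3. The 6 arrays share 1 pool, and these distances are a description.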

How the data were processed

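Per the labels, amplified RNA of each iPS line and of the ES pool was hybridised to 2-colour arrays with dyes swapped between the 2 arrays of a line. The authors deposited scanner intensity per spot, signal and local background, without normalization. They also deposited log2 ratios per array and a final table with a mean log2 ratio and a p-value per reporter; the normalization and the test are not given in the sources used here. On every array the deposited ratio was found to have iPS on top.

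Intensities of 41174 gene probes (4046 control spots had no weight) were corrected with normexp (offset 50) and loess in limma 3.58.1 under R 4.3.3, with statmod 1.5.0. A probe was above background over percentile 95 of a dim control. A symbol was present for 34186 probes, updated where old through the GRCm38.p6 gene table, and 6988 had none. The brightest probe stands for a gene. Line means were tested against 0 (two-sided); lines, pairs, F and dye came from all 6 arrays. P-values were adjusted over all probes. The test leaves out the spread of ES cultures, and precision is limited by the number of arrays. The scripts were tested on simulated data. The groups, alternatives and tests are those given with each result.

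The genes and the pathway and marker lists were chosen with earlier results of these data known. All probes of the 10 genes are named, and of each list the called genes, or else up to 3 with the smallest p, of which the text gives some; for Id1 and Id3 the 5 nearest genes are named, passing over predicted and unnamed transcripts.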

Additional observations from a re-analysis of the deposited data

Results flagged for a closer look

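The lines differed, by limma's F test against the spread of duplicate arrays, at both Id1 probes (adjusted p = 0.00178 and 0.000788), at 2 of 3 Id2 probes (0.00873 at the brightest and 0.0138 at the dimmest) and at both Id4 probes (0.0219 and 0.0307). For Id1 iPS1 was the low line, and for Id4 iPS4 was the high one at both probes. The 2 Id2 probes differed in order: iPS4 was highest at the brightest and iPS1 at the dimmest.

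The same test passed for Bmp4 (0.00164), for the brightest and the dimmest Bmpr1a probe (0.0103 and 0.000565), for the dimmer Smad1 probe (0.0443), for the brightest Smad5 probe (0.00117) and for Smad7 (0.0153). At the 2 Bmpr1a probes, the Smad1 probe and the Smad5 probe iPS1 was highest and iPS5 lowest, and iPS5 had the dimmest arrays.

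Among the 58 other measured pathway genes it passed for 21, against 25.2% of all genes. Only those among the genes named by p in the mean of the lines were flagged. They were Bambi (0.0465), Fst (0.000864), Grem1 (0.00122), Twsg1 (0.0288), Smurf1 (0.0253) and Tcf12 (0.0235). Others had lower values, the lowest being Tbx3 (7.63e-05). All of these p-values rest on the spread of duplicate arrays alone.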

How the results depend on the processing

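Id1, Id2, Id3, Id4, Bmp4, Bmpr1a and Smad5 stayed above 0 and Smad6 below 0 in the mean of the lines under all 19 alternatives. Id1 was called in 12 of them, Id2 in 14, Id4 in 13, Bmpr1a in 8 and Smad5 in 7; Id3, Bmp4, Smad1, Smad6 and Smad7 were called in 0. Id1 ranged over 2.07 to 2.74, with adjusted p from 0.00147 to 0.439 (limma). The count of called genes among the 10 was 5 with plain background subtraction, with median centring in place of loess, with only probes above background on all arrays, and with 6 arrays and the line as a random block. It was 0 without line iPS1 (8 at an unadjusted p under 0.05), without line iPS4 (5) and with the pool as a sample (3). Leaving out 1 array at a time gave 0 to 4, with 0 without the first iPS4 array or the first iPS5 array (7 unadjusted each). The count of the other pathway genes, 3, became 6 with subtraction, 7 with median centring, 5 with the filter on dim probes, 5 without line iPS5, 10 with the random block, 0 without line iPS1 (17 unadjusted), 0 without line iPS4 (6) and 0 with the pool as a sample (4), and ran from 0 to 7 with 1 array left out. The F test called 0 of the 10 genes with a normexp offset of 0 (5 unadjusted), 2 with subtraction, 2 with median centring, 2 without the dye term, 4 with arrays scaled to a common spread, and 4 to 8 with 1 array left out. Median centring left 4 genes called in iPS5; with 1 array left out, 5 to 8 were called in iPS1, 6 to 9 in iPS4 and 7 to 8 in iPS5.

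Direction turned for values near 0, and 1 turned value passed the test, Smad1 in iPS4 with a mean over its probes. The mean of Smad7 was -0.0599 with the authors' ratios, -0.0163 with scaled arrays and -0.0843 without line iPS4, and -0.115 to 0.16 over the alternatives, with negative values without the second iPS1 array (-0.103), the second iPS4 array (-0.115) and the first iPS5 array (-0.0839). The mean of Smad1 was 0.102 with a mean over its probes and 0.00157 without line iPS5. In iPS1 Smad1 was -0.00124 with offset 0, -0.000554 with subtraction, -0.00878 with median centring, and -0.0301 or 0.0451 with the first or second array left out. In iPS4 Smad1 was 0.134 with a mean over its probes (adjusted p = 0.0212, limma; in iPS1 the same mean was 0.177, adjusted p = 0.00797), and -0.0227 or 0.0139 with the first or second array left out. In iPS1 Bmp4 was -0.0591 or 0.295, and Id3 0.386 or -0.0356, with the first or second array left out. For all these changes the cause was not tested. A variance prior with a trend on intensity, chosen after seeing the data, left all these counts as they were.

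No paired analysis was possible because the labels number no replicates across the lines; the array numbers in the titles fall into 2 sets that match the dye orientation, which the dye term already takes up. Slide and scan date as a block were not run, since no such column was used here. Precision is limited by 3 lines, 1 pool and dim iPS5 arrays.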
